A study of Mus musculus with 28 samples.

Results

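The comparison described here is between smooth muscle cultures and proliferating cultures of O9-1 cells at 21% O2, and it covers 8 of the 28 RNA libraries of the study. O9-1 is a mouse cell line from the cranial neural crest, and each group held 4 libraries, named by the library titles. Smooth muscle cultures had spent 3 days in DMEM with 10% fetal calf serum and 1% penicillin and streptomycin. Proliferating cultures were kept in DMEM conditioned by STO feeder cells, with 15% fetal calf serum, 1% penicillin and streptomycin, 55 µM beta-mercaptoethanol, 25 ng/ml bFGF, 5 ng/ml LIF and non-essential amino acids at 0.1 mM. Both were grown at 37 °C and 5% CO2, and no genetic change was named in the labels. The move to smooth muscle medium therefore removed bFGF, LIF, conditioning, amino acids and beta-mercaptoethanol and lowered serum at once, so the part of each cannot be told apart. The labels give no time in culture for the proliferating cells. For context, 4 osteoblast libraries (10 days in alpha-MEM with 10% serum, 10 mM beta-glycerophosphate, 0.1 µM dexamethasone, 100 ng/ml BMP-2 and 1% penicillin and streptomycin) and 4 chondrocyte libraries at the same oxygen level were used. The chondrocyte cultures had 3 days in osteoblast medium and then 7 days as micromasses on Matrigel in alpha-MEM with 5% serum, ITS supplement, 0.1 µM dexamethasone, 10 ng/ml TGF-beta3, 50 ng/ml BMP-2 and 1% penicillin and streptomycin.

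Cranial neural crest cells are migratory embryonic cells that form bone, cartilage and connective tissue of the face and also the smooth muscle and pericytes of vessels in the head. Smooth muscle differentiation is driven largely by serum response factor, SRF, which binds CArG boxes in front of contractile genes together with myocardin or the myocardin-related factors, whose movement into the nucleus depends on actin polymerisation. Smooth muscle cells can shift between a contractile state, rich in actin, myosin and their regulators, and a synthetic state that divides and makes matrix. In the growth medium, FGF acts through the ERK kinases, and LIF acts through the gp130 receptor and STAT3, and both pathways switch on their own inhibitors.

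The 4 smooth muscle libraries held 25611647 to 28923765 counts and the 4 proliferating libraries 23904199 to 64693346, with proliferating replicate 2 the deepest. Of 54429 genes in the count table, 24088 had a count in these libraries and 14582 passed a filter on low counts and were tested. Replicate 4 stood apart from its group in both conditions: chi-square per degree of freedom over genes was 14.004 to 20.199 for pairs with smooth muscle replicate 4 against 6.097 to 7.935 for the other pairs. The same measure was 18.298 to 22.289 for pairs with proliferating replicate 4 against 5.177 to 5.827. Without both replicate 4 libraries, the counts of list members called higher or lower than in proliferating cells moved by at most 1, except where the counts without them are given. Mitochondrially encoded transcripts made up 0.994% to 1.03% of counts in smooth muscle and 0.51% to 0.618% in proliferating libraries, and their part in the results was not tested. The labels do not say whether the 4 libraries of a group came from separate cultures, so p-values measure the spread between libraries, which may be technical.

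Most genes differed between the 2 groups. With edgeR's quasi-likelihood test and Benjamini-Hochberg adjustment, 11626 of 14582 genes (79.7%) were called at an adjusted p under 0.05. Of these, 5953 (40.8%) were higher and 5673 (38.9%) lower in smooth muscle cultures. A change of at least 2-fold was called for 5727 genes (39.3%), of which 3249 (22.3%) were higher and 2478 (17%) lower. At 8-fold or more the split was uneven, with 882 genes higher and 250 lower. For 10956 genes (75.1%) the values of the 4 smooth muscle libraries did not overlap those of the 4 proliferating libraries. The replicate 4 libraries did not carry this, since replicates 1 to 3 alone gave 11928 calls, and the median log2 fold change over all tested genes was 0.03. Because so many genes were called, single calls say little, sizes are given throughout, and the counts for each list stand against 40.8% higher and 38.9% lower over all tested genes. Levels are counts per 1000000 scaled counts (CPM, scaled by the trimmed mean of M values), and changes are log2 fold changes of smooth muscle over proliferating with the standard error after the ± sign, so that 1 is a 2-fold rise and 3 an 8-fold rise. In these bulk samples, fewer cells that express a gene and less of its RNA per cell cannot be told apart.

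**Figure D1:**
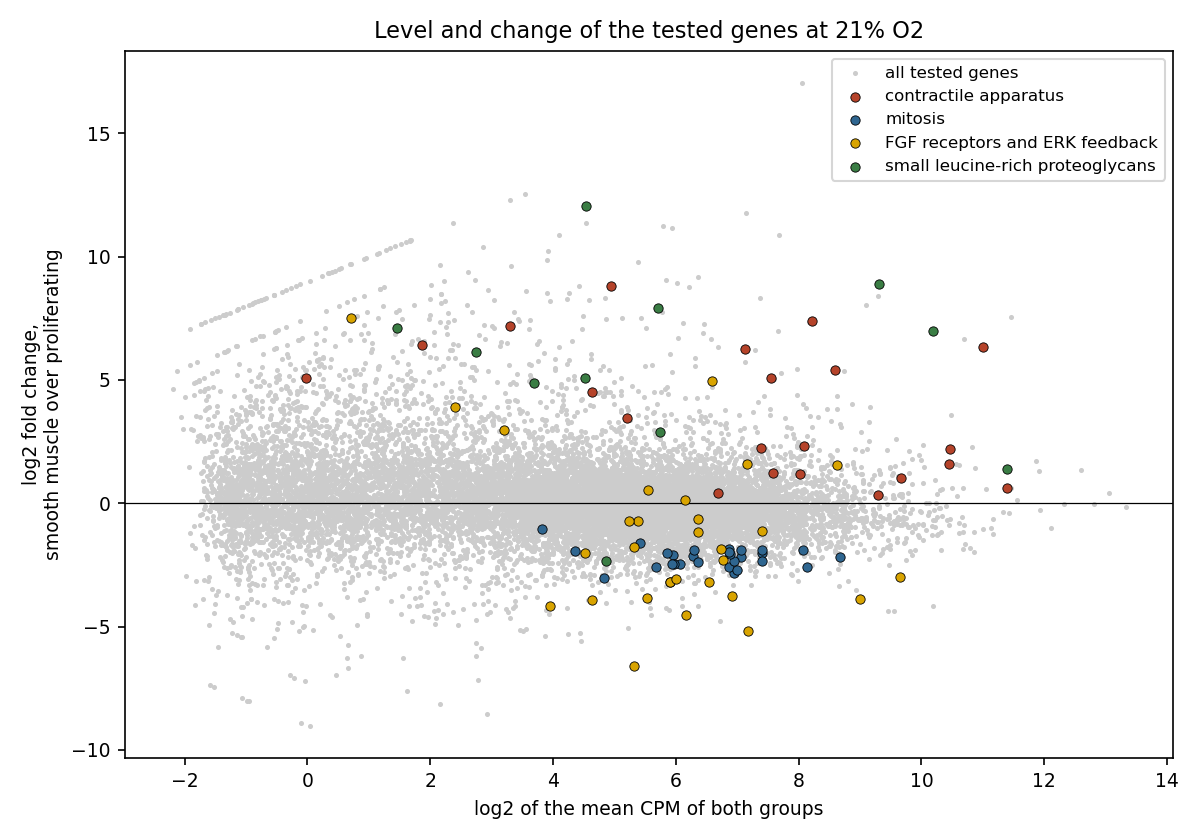
Each point is 1 tested gene, with its mean level over the 8 libraries on the horizontal axis (log2 CPM) and its log2 fold change, smooth muscle over proliferating at 21% O2, on the vertical axis. Contractile genes lie above 0, with Acta2 at 6.33 and Myl9 at 7.37, and mitosis genes lie below 0, with Mki67 at -1.90.

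Genes of the contractile apparatus were higher in smooth muscle cultures. Of the 22 genes on the list, 21 passed the filter on low counts, and 21 rose (40.8% of all tested genes rose), 18 of them at least 2-fold (22.3% of all tested genes), with a median log2 fold change of 3.44 against 0.03 over all tested genes. Without the replicate 4 libraries 21 rose as well. The list held 1.77% ± 0.0657 (SD, n = 4) of all counts in smooth muscle libraries and 0.487% ± 0.019 (SD, n = 4) in proliferating libraries, a 3.63-fold difference (two-sided exact permutation test, p = 0.0286, the smallest that 4 against 4 allows). The 3 markers named for smooth muscle identity, Acta2, Tagln and Cnn1, were all among the genes that rose, but their levels were unequal.

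Acta2, smooth muscle alpha actin (chr19:34241090-34255590, minus strand, mm10), stood at 4305, 3904, 4273 and 3766 CPM in smooth muscle and 51.3, 49.7, 53 and 47.3 CPM in proliferating libraries. No proliferating library came within an order of magnitude of the lowest smooth muscle library, and the change was 6.33 ± 0.08 (edgeR quasi-likelihood test, adjusted p = 1.46e-17), or 80.7-fold. Tagln, the actin-binding protein transgelin or SM22 (chr9:45929619-45936058), stood at 375, 339, 371 and 378 CPM in smooth muscle and 11.2, 10.4, 10.8 and 10.6 CPM in proliferating libraries, a change of 5.09 ± 0.06 (adjusted p = 1.84e-17). Cnn1, calponin 1, an inhibitor of actomyosin ATPase, stood at 9.18, 5.94, 7.11 and 6.71 CPM in smooth muscle and 0, 0.0318, 0.12 and 0.257 CPM in proliferating libraries. Cnn1 was thus at or near 0 in every proliferating library and low in smooth muscle, and its change of 6.43 ± 0.42 (adjusted p = 1.28e-09) rests on few counts in the proliferating group. It was 5.91 without proliferating replicate 2 and 7.27 without proliferating replicate 4. Per kilobase of exon, the smooth muscle means were 1850 CPM for Acta2, 184 CPM for Tagln, 63.2 CPM for Smtn, 15.7 CPM for Lmod1, 2.64 CPM for Cnn1 and 0.255 CPM for Myh11. The late marker Myh11, smooth muscle myosin heavy chain, reached only 1.53, 1.74, 1.16 and 3.32 CPM in smooth muscle and 0, 0.111, 0 and 0.0428 CPM in proliferating libraries, although the groups did not overlap (5.08 ± 0.60, adjusted p = 1.15e-06, or 6.80 without proliferating replicate 2). Des, desmin, an intermediate filament of muscle, was too low to be tested, at a mean of 0.0439 CPM in smooth muscle and 0.0214 CPM in proliferating libraries.

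Genes of myosin regulation and actin assembly rose as well. Myl9, the regulatory light chain of smooth muscle myosin, stood at 604, 575, 642 and 549 CPM in smooth muscle and 3.48, 3.14, 3.08 and 4.96 CPM in proliferating libraries (7.37 ± 0.12). Lmod1, leiomodin 1, which nucleates actin filaments in smooth muscle, stood at 65.6, 60.4, 59.7 and 61.6 CPM in smooth muscle and 0.13, 0.0955, 0.0799 and 0.299 CPM in proliferating libraries (8.80 ± 0.16). Mylk, the kinase that phosphorylates the regulatory light chain, stood at 277, 278, 262 and 281 CPM in smooth muscle and 3.87, 2.87, 2.68 and 5.3 CPM in proliferating libraries (6.27 ± 0.15). In all 3 genes every smooth muscle library was far above every proliferating library. Actg2, smooth muscle gamma actin, changed by 7.20, the actin-bundling protein Synpo2 by 4.50 and the integrin subunit Itga8 by 5.42. The coding sequences of Acta2, Actg2 and other actins are nearly identical, so how reads were divided among them is uncertain. Actin-binding genes that proliferating cells already expressed rose less. Tpm1, tropomyosin 1, stood at 2381, 2328, 2327 and 2241 CPM in smooth muscle and 482, 503, 509 and 508 CPM in proliferating libraries (2.21 ± 0.05), and the other members of this kind were Csrp1 (2.32), Smtn (2.23), Cald1 (1.60), Tpm2 (1.19), Vcl (1.02) and Flna (0.62). Actn1, the crosslinker alpha-actinin 1, changed least, at 723, 699, 695 and 674 CPM in smooth muscle and 588, 590, 554 and 497 CPM in proliferating libraries (0.33 ± 0.06, adjusted p = 0.000136), still without overlap.

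**Figure D2:**
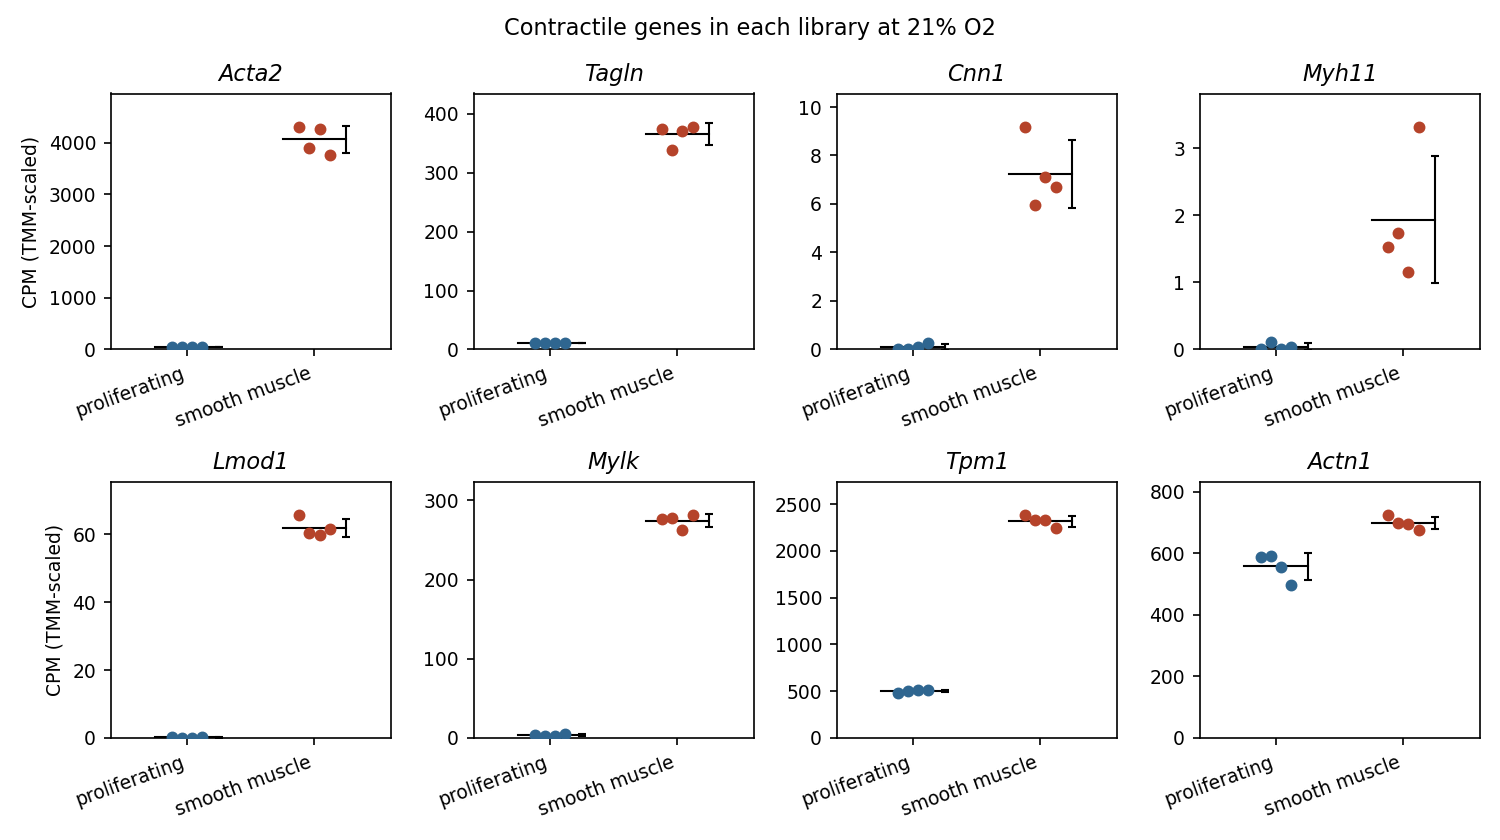
Level of contractile genes in each library at 21% O2 (vertical axes, CPM scaled by the trimmed mean of M values), with 1 point per library, the mean as a line and the SD as an error bar (n = 4 per group). Acta2 lies between 3766 and 4305 CPM in smooth muscle and between 47.3 and 53 CPM in proliferating libraries, and the groups do not overlap for any gene shown.

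The promoters of contractile genes are known for CArG boxes, so the windows from 250 bases before to 50 after the RefSeq transcript starts (GRCm38.p6) were searched. RefSeq windows were found for 18 of the 22 contractile genes (21 windows), and the search covered both strands. A strict CArG box, that is CC followed by 6 bases of A or T and then GG, was present in 2 of 21 windows (9.52%), against 1.63% of all 32851 windows, but in 0 of 21 between 100 bases before and 50 after the start (0.776% of all). Allowing at most 1 G or C among the 6 inner bases gave 3 of 21 windows (14.3%, Acta2, Myl9 and Vcl) against 9.98% of all windows. This looser form was not particular to genes that rose. In lists that fell, described below, it was in 7 of 25 DNA replication windows (28%) and in 0 of 24 mitosis windows. Vinculin, Vcl, links actin to adhesions. The stretches that hold the boxes are printed 5′ to 3′ on the strand of the gene, because these 3 genes all rose and differ in the number or the kind of their boxes, with the boxes in capitals. The Acta2 stretch lies at chr19:34255374-34255473 on the minus strand, the Myl9 stretch at chr2:156775284-156775383 on the plus strand and the Vcl stretch at chr14:20929158-20929207 on the plus strand of mm10, all upstream of the RefSeq start. For Acta2 this start lies inside the longer GENCODE gene span given above.
Acta2: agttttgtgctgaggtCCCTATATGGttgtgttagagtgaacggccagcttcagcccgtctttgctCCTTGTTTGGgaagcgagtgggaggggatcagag
Myl9: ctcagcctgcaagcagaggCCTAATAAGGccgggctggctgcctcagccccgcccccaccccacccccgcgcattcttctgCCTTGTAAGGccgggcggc
Vcl: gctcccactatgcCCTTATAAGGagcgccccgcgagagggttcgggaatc
Both boxes of Acta2 hold 1 C or G inside, Myl9 holds 1 strict box and 1 with a G inside, and Vcl holds a strict one. A match of letters is a description and does not show binding, and the other windows say only that these letters are not in them.

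Genes that control contraction also rose in most cases. Of 23 listed genes 15 were tested, with 12 higher (40.8% of all tested genes), 1 lower (38.9%) and a median of 1.88. Receptors and their regulators led. Ednra, the endothelin A receptor of vascular smooth muscle, changed by 6.47 (10.2 ± 0.467 against 0.106 ± 0.093 CPM, mean ± SD, n = 4 each). Ednrb, the endothelin B receptor, changed by 4.36, and Rgs4, which shuts off G protein signalling, by 7.07 (43.8 ± 4.81 against 0.424 ± 0.606 CPM). Without proliferating replicate 2 the change of Rgs4 was 6.40 and without proliferating replicate 4 it was 8.56. Of the genes of cGMP signalling, the kinase Prkg1 changed by 3.72 and Pde5a, which breaks down cGMP, by 3.16. The calcium channel Cacna1c changed by 1.84 and the calcium release channel Itpr1 by 1.77. Rock2, a kinase that sensitises myosin to calcium, fell by 0.84, while Rock1 was at -0.05 and not called. Several genes of mature vascular smooth muscle had no count in any of the 8 libraries, namely Kcnmb1, Pln, Agtr1a and Gucy1b1.

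Among transcription regulators of smooth muscle, 18 of 22 were tested, with 11 higher (40.8% of all tested genes) and 3 lower (38.9%) and a median of 0.38. Without the replicate 4 libraries the counts were 11 and 5. Srf itself stood at 90.8, 82.4, 87.4 and 94.2 CPM in smooth muscle and 106, 108, 94.6 and 83.6 CPM in proliferating libraries. These values overlap, and the difference of -0.15 ± 0.08 was not called (adjusted p = 0.0892). Its partners Mrtfb (1.07) and Mrtfa (0.66) rose, and Myocd, myocardin, was too low to be tested at 0.268, 0.234, 0.29 and 0.109 CPM in smooth muscle and 0, 0.0478, 0.0399 and 0.0428 CPM in proliferating libraries. Mef2c, a muscle MADS-box factor, stood at 195, 210, 200 and 193 CPM in smooth muscle and 23, 19.9, 21.8 and 24.2 CPM in proliferating libraries, with every smooth muscle library far above the other group (3.17 ± 0.07). Klf2 changed by 2.64, the homeobox factor Prrx1 by 1.42 and Tead3 by 1.53. The members that fell were Tead1 (-0.27), Klf4, a repressor of contractile genes (-1.16), and Elk3, an ETS partner of SRF (-1.60).

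Targets of YAP, a co-activator that responds to cell stretch and spreading, were mixed. All 17 were tested, with 11 higher (40.8% of all tested genes), 3 lower (38.9%) and a median of 0.73, or 12 and 5 without the replicate 4 libraries. Tgfb2 changed by 3.27, Crim1 by 1.41 and the classical target Ccn1 by 0.75. Ccn2, connective tissue growth factor, stood at 72.1, 64.7, 69.3 and 62.1 CPM in smooth muscle and 58.2, 64.3, 56.3 and 16.4 CPM in proliferating libraries, and 1 low proliferating library, replicate 4, set its spread (0.45, not called). Myof (-1.49), the receptor kinase Axl (-1.62) and Ankrd1 (-3.09) fell.

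Extracellular matrix genes rose in most lists. Of the 5 genes that gained the largest share of all counts 4 were matrix genes, and these 5 were Col1a2 (0.573 percentage points), Postn (0.571), Col1a1 (0.414), Acta2 (0.412) and Fn1 (0.347). Fibrillar collagens and the enzymes that process them were higher for 17 and lower for 3 of 22 tested genes (median 1.23). Col1a1 and Col1a2, the chains of type I collagen, changed by 1.70 ± 0.12 and 1.33 ± 0.07, from 3540 ± 63.2 to 8927 ± 851 CPM (SD, n = 4) in the latter. Col3a1, which forms mixed fibrils with type I, changed by 2.26. Col11a1, a minor fibril collagen best known from cartilage, stood at 1257, 1253, 1156 and 1346 CPM in smooth muscle and 2.15, 2.55, 2.8 and 8.3 CPM in proliferating libraries (8.42 ± 0.41), with proliferating replicate 4 the highest of its group. Elastic fibre genes were higher for 17 and lower for 2 of 19. Eln, tropoelastin, had 704 counts over the smooth muscle libraries and 0 in the proliferating ones, at least 300-fold higher against a floor of 3 counts over the group. Mfap4 changed by 8.32, Mfap2 by 6.04, Fbln5, which helps to place elastin on microfibrils, by 3.23, and Lox, the enzyme that crosslinks collagen and elastin, by 3.35. Ltbp1, which tethers latent TGF-beta, fell by 1.90.

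Small leucine-rich proteoglycans, which bind collagen fibrils and set their diameter, had the highest median of the matrix lists, 6.15 over 11 tested of 13, with 10 higher and 1 lower. Aspn, asporin (chr13:49544443-49567565), stood at 1206, 1254, 1403 and 1187 CPM in smooth muscle and 2.83, 2.88, 1.44 and 3.29 CPM in proliferating libraries (8.89 ± 0.16). Ogn, osteoglycin, changed by 7.0 (2309 ± 123 against 18 ± 1.65 CPM), Prelp by 7.90 and Dcn, decorin, by 4.86. Bgn, biglycan, was already at 1471 CPM in proliferating cells and changed by 1.40. Fmod, fibromodulin, had 5166 counts against 1, a ratio of 6600 (95% interval 1180 to 261000, counting error only). The exception was Podnl1, at -2.34.

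Matricellular genes, which code for matrix proteins that signal to cells more than they bear load, were higher for 14 and lower for 2 of 18 (1 lower without smooth muscle replicate 2, and 15 and 3 without the replicate 4 libraries). Postn, periostin (chr3:54361109-54391037), stood at 5445, 5805, 5929 and 5142 CPM in smooth muscle and 28.6, 27.2, 25.7 and 37.7 CPM in proliferating libraries (7.55 ± 0.13). Tnn, tenascin N, changed by 8.05 (1087 ± 203 against 3.97 ± 0.739 CPM), the thrombospondin Thbs1 by 3.57 and Fn1, fibronectin, by 1.29. Spp1, osteopontin, fell by 1.64 (814 ± 52.2 against 2532 ± 462 CPM), and Tnxb, at -1.74, fell at levels under 1 CPM with overlapping libraries (-2.87 without smooth muscle replicate 3). Without smooth muscle replicate 2 (-1.38) or replicate 4 (-1.42) Tnxb was not called. Basement membrane genes were higher for 14 and lower for 2 of 17. Lama4, the laminin chain of vessel walls, changed by 9.06 (114 ± 5.98 against 0.189 ± 0.126 CPM), Nid2 by 5.56, and the type IV collagen genes Col4a1 and Col4a2 by 0.83 and 1.09. Col18a1 (-1.75) and Col15a1 (-1.42) fell and Nid1 was at 0.00.

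Matrix receptors and proteases changed in both directions. Of 24 tested integrin and adhesion genes, 15 were higher and 7 lower. Collagen-binding integrin subunits were among those that rose, with Itga1 at 7.44 (6.71 without proliferating replicate 2 and 8.08 without proliferating replicate 4), Itga2 at 3.47 and Itga11 with 1351 counts against 2 (ratio 863, 95% interval 238 to 7130, counting error only). The laminin-binding subunits Itga3 (-1.76) and Itga6 (-2.44) and the leukocyte subunit Itgb7 (-4.67) fell. Of 24 tested proteases and inhibitors, 18 were higher and 5 lower. Serpine2, a protease inhibitor, changed by 5.28 and the membrane metalloproteinase Mmp15 by 5.03 (5.97 without proliferating replicate 2), while the stromelysin Mmp3 changed by -3.28, the inhibitor Timp1 by -2.55, and Mmp10 had 3 counts against 197. Cadherins and catenins, which join cells, were higher for 8 and lower for 0 of 9 tested genes of 14, with Cdh11, the cadherin of mesenchyme, at 5.37 and Cdh2, N-cadherin, at 0.02 and not called.

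**Figure D3:**
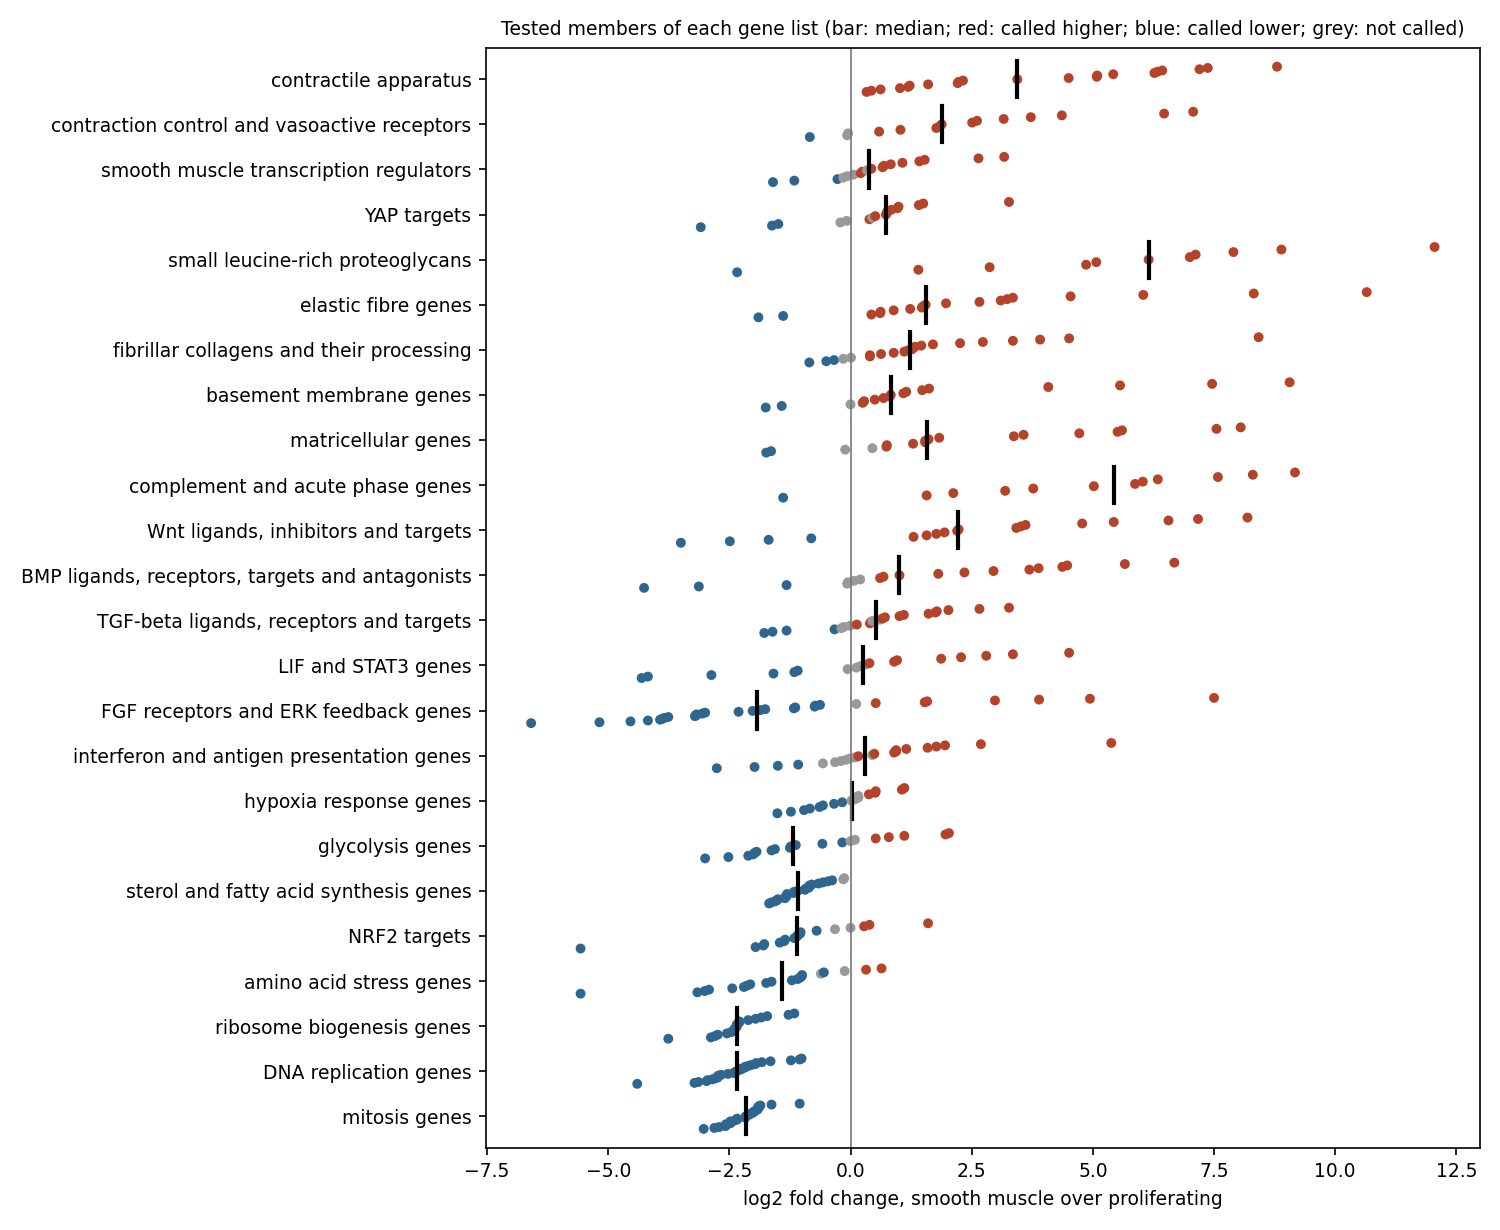
Log2 fold change of each tested gene of the lists, smooth muscle over proliferating at 21% O2 (horizontal axis), with 1 point per gene and the list's median marked. All points of the contractile list lie above 0 (median 3.44), and all points of the mitosis list (median -2.15) and the DNA replication list (median -2.35) lie below 0.

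The FGF and ERK list fell in most members, and the receptors went the other way. Of 31 listed genes 30 were tested, with 7 higher, 22 lower (38.9% of all tested genes fell) and a median of -1.94. The receptors Fgfr1 (1.53) and Fgfr2 rose, the latter standing at 197, 187, 192 and 173 CPM in smooth muscle and 5.8, 4.98, 6.27 and 8.04 CPM in proliferating libraries (4.94 ± 0.11). Fgfr3 had 362 counts against 2, a ratio of 231 (95% interval 63.6 to 1920, counting error only). The ligands Fgf2 (3.89) and Fgf7 (1.58) rose, and Fgf10 was at 0.12, not called. Among the inhibitors on the list, which ERK signalling induces, Dusp6, the cytoplasmic ERK phosphatase, stood at 13.2, 9.92, 11.6 and 12.2 CPM in smooth muscle and 108, 110, 108 and 107 CPM in proliferating libraries (-3.21 ± 0.08, adjusted p = 1.33e-14). Spry4, a sprouty inhibitor of receptor signalling, stood at 19.5, 18.7, 17.6 and 17.4 CPM in smooth muscle and 62.1, 56.3, 59.4 and 69.7 CPM in proliferating libraries (-1.76 ± 0.08). Spry2 changed by -1.17, but Spry1 changed by 2.98, so the sprouty genes did not move together. Of the ETS factors, Etv4 stood at 7.38, 3.64, 4.9 and 7.91 CPM in smooth muscle and 140, 135, 129 and 149 CPM in proliferating libraries (-4.54 ± 0.20), and Etv5 (log2 fold change -3.18) and Etv1 (-0.73) fell too. Other genes of the list also fell, with Fosl1, an AP-1 subunit, at -5.18, Dusp4 at -3.93, Dusp5 at -3.06 and Myc at -3.76. The EGF receptor ligands Areg (-6.59), Ereg (-3.84) and Hbegf (-3.18) fell, and the immediate early factor Egr1 rose (0.52). Ccnd1, the cyclin that mitogens induce, stood at 190, 160, 177 and 188 CPM in smooth muscle and 1466, 1453, 1470 and 1311 CPM in proliferating libraries (-3.0 ± 0.07).

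LIF and STAT3 genes were mixed, with 8 higher and 6 lower of 18 tested (40.8% and 38.9% of all tested genes), or 10 and 6 without the replicate 4 libraries. Receptor chains rose, with Lifr at 2.80, the shared chain Il6st (gp130) at 1.87 and the oncostatin M receptor Osmr at 4.51. Stat3 changed by 2.28. Socs3, the feedback inhibitor that STAT3 induces, stood at 58.8, 57.8, 53.5 and 63.6 CPM in smooth muscle and 31.8, 31.4, 28.8 and 33.4 CPM in proliferating libraries and so was higher in medium without added LIF (0.90 ± 0.07, adjusted p = 9.87e-09). Cish, another inhibitor of the family, changed by 3.35 and Socs1 by -1.59. The cells' own transcripts for Lif (-4.18) and Il11 (-4.31), both gp130 ligands, fell.

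**Figure D4:**
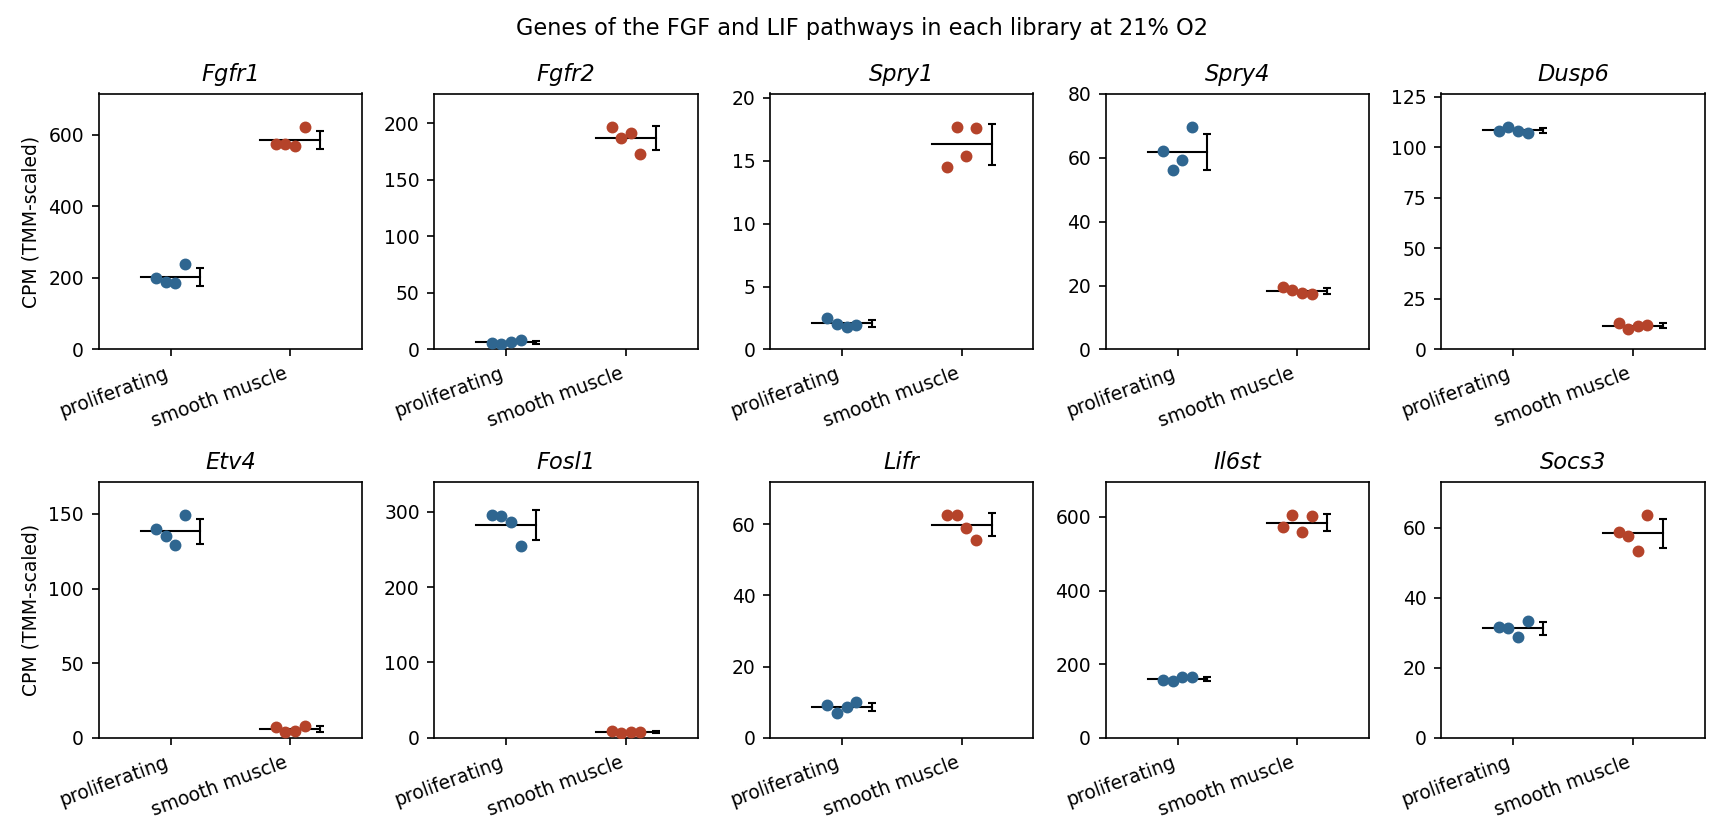
Level of FGF and LIF pathway genes in each library at 21% O2 (vertical axes, CPM scaled by the trimmed mean of M values), with 1 point per library, the mean as a line and the SD as an error bar (n = 4 per group). Receptors such as Fgfr2 lie higher in smooth muscle, while Spry4, Dusp6, Etv4 and Fosl1 lie lower, without overlap between groups.

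In other signalling pathways, several ligands and secreted inhibitors changed, some up and some down. TGF-beta genes were higher for 13 and lower for 4 of 22 (15 and 5 without the replicate 4 libraries), with the ligands Tgfb2 at 3.27 and Tgfb3 at 1.75, the target Pmepa1 at 2.02, the activin subunit Inhba at -1.78 and the mediators Smad4 at -0.01 and Smad7 at -0.19, both not called. BMP genes were higher for 12 and lower for 3 of 19 tested of 25. Among ligands, Bmp4 rose (5.66 ± 0.21) and Bmp2 fell (-4.26 ± 0.20). Among antagonists, Chrdl1 rose (6.68) and Fst fell (-3.13), and the BMP target genes Id2 (4.37) and Smad6 (2.95) rose. Wnt genes were higher for 14 and lower for 4 of 18 tested of 28. The secreted inhibitors Frzb (8.19) and Sfrp1 (5.43), the agonist Rspo1 (7.17) and the feedback genes Nkd1 (6.56) and Axin2 (1.57) rose, and the inhibitors Dkk2 (-3.50) and Notum (-2.49) fell. Single libraries moved some of these sizes, with Frzb at 9.49 without proliferating replicate 1 and 7.42 without replicate 2, Nkd1 at 7.95 without replicate 2 and Rspo1 at 7.78 without replicate 4.

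Hedgehog genes were higher for 10 and lower for 2 of 13, led by the co-receptor Boc (7.36, or 6.77 without proliferating replicate 2), while the pathway's own target genes Ptch1 (-0.83) and Hhip (-4.67) fell and the target Gli1 was at -0.32, not called. Notch genes were higher for 5 and lower for 4 of 11, near the shares of all tested genes (40.8% and 38.9%). Notch3, the Notch receptor of mural cells, changed by 3.98 (33.7 ± 5 against 2.23 ± 1.21 CPM), and Rbpj, the DNA-binding mediator of the pathway, by -1.75. Of 7 tested PDGF genes 4 were higher and 2 lower. The receptors Pdgfra (2.18) and Pdgfrb, the receptor of mural cells (1.94), rose, and the ligands Pdgfa (-0.73) and Pdgfc (-0.81) fell, while the ligand Pdgfd rose (1.67). Of 15 tested IGF genes 10 were higher and 4 lower. Igf1 changed by 7.12 and the imprinted RNA H19 by 7.36. Igf2 had 153 counts against 0, at least 65.2-fold higher against a floor of 3 counts over the group. Igf2bp1, a fetal RNA-binding protein, changed by -1.26.

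Cell cycle genes were lower in smooth muscle cultures. All 28 mitosis genes and all 29 DNA replication genes fell (38.9% of all tested genes fell), each of them by at least 2-fold (17% of all tested genes), with medians of -2.15 and -2.35, and all fell without the replicate 4 libraries too. Together both lists held 0.212% ± 0.0125 (SD, n = 4) of counts in smooth muscle libraries and 0.951% ± 0.0626 (SD, n = 4) in proliferating libraries, a 4.49-fold difference (two-sided exact permutation test, p = 0.0286, the smallest possible). Mki67, a marker of cells in cycle, stood at 127, 119, 103 and 105 CPM in smooth muscle and 463, 416, 469 and 344 CPM in proliferating libraries (-1.90 ± 0.10). It remained above 100 CPM in every smooth muscle library, so the cycle genes were reduced and not absent. The mitotic regulators Ccnb1 (-2.71), Cdc20 (-2.58), Ube2c (-2.81) and Cdk1 (-2.34) fell, with Mybl2, a factor that drives late cycle genes, at -3.03 and securin, Pttg1, least at -1.05. Of the replication genes, E2f2 (-4.40), thymidine kinase Tk1 (-3.22) and the origin-licensing gene Cdc6 (-3.14) fell most, the helicase subunit Mcm5 changed by -2.97 and Pcna, the polymerase clamp, by -1.95. Cell cycle inhibitors were divided, since Cdkn1c (4.01) and Cdkn1b (1.60) rose and Cdkn1a, the p21 gene, fell (-2.19 ± 0.10, 40.8 ± 4.94 against 186 ± 22.7 CPM). The pocket protein genes divided too, with Rbl2 at 1.42 and Rbl1 at -2.11.

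Late cycle promoters are known for CCAAT boxes, bound by NF-Y, and for the cell cycle homology region TTTGAA, bound by the DREAM and MuvB complexes. RefSeq windows were found for 23 of the 28 mitosis genes (24 windows). On either strand, CCAAT was present in 18 of 24 windows (75%, against 37.4% of all promoters) and TTTGAA in 17 of 24 (70.8%, against 17.9%). In the shorter window from 100 bases before to 50 after the start, TTTGAA was still in 17 of 24 (70.8%, against 8.01% of all promoters). In the DNA replication list, which fell to a similar extent, CCAAT was in 68% of 25 windows and TTTGAA in 3 of 25 (12%, against 17.9% of all promoters). In the shorter window TTTGAA was also in 3 of 25 (12%, against 8.01%), so its place relative to all promoters depended on the window. Stretches of 3 mitosis genes are printed 5′ to 3′ on the strand of the gene because their motif content differs while all 3 fell, with CCAAT, its reverse complement ATTGG and TTTGAA in capitals. Ccnb2 lies at chr9:70421555-70421654, Cdk1 at chr10:69352913-69353012 and Cdc20 at chr4:118437344-118437443, all on the minus strand of mm10 and all upstream of the RefSeq start.
Ccnb2: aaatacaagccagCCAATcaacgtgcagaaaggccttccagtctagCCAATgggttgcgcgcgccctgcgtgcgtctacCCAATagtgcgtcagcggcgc
Cdk1: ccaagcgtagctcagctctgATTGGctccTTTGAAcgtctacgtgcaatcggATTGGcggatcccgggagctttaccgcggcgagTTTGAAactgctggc
Cdc20: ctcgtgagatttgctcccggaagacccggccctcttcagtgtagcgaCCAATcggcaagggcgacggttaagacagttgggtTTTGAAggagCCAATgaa
The Ccnb2 stretch shows 3 CCAAT boxes and no TTTGAA, and the others hold both motifs. For YAP targets, GGAATG, a core bound by TEAD factors, was in 8 of 16 windows (50%, against 14.7% of all promoters) and in 18.8% of the shorter windows (against 6.94%). The contractile list held it in 38.1% of windows but in 4.76% of the shorter ones, so its share depended on the window.

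Genes of growth metabolism were also lower in most lists. All 20 ribosome biogenesis genes fell (median -2.35), among them the nucleolar factors Nop56 (-2.88) and Rrp12 (-2.80), and Ncl, nucleolin, was among the genes that lost the largest share of counts. Of 20 tested amino acid stress genes, mostly targets of ATF4, 16 fell and 2 rose. Psat1, of serine synthesis, stood at 101, 84.6, 85.4 and 89.2 CPM in smooth muscle and 791, 807, 840 and 788 CPM in proliferating libraries (-3.16 ± 0.07), and Shmt2 (-2.92) and Mthfd2 (-3.01), of mitochondrial folate metabolism, fell with it. Slc7a11, the cystine transporter, stood at 0.612, 1.5, 0.725 and 0.693 CPM in smooth muscle and 32.5, 33.4, 35.3 and 70.5 CPM in proliferating libraries. It was the list's largest fall (-5.57 ± 0.42), and proliferating replicate 4 lay above the other libraries of its group. Of 18 NRF2 targets 13 fell and 3 rose, with the glutathione synthesis subunit Gclc at -1.96 and the haem oxygenase Hmox1 at 1.60. Sterol and fatty acid synthesis genes fell in 23 of 25 and rose in none (0 of 25), with the fatty acid synthase Fasn at -1.56 and Insig1 at -0.13, not called. Of 20 glycolysis genes 13 fell and 5 rose. Hexokinase Hk2 changed by -2.52, Pkm by -1.98 and Ldha by -2.01, against 2.03 for Ldhb, the other lactate dehydrogenase subunit. Gapdh, Aldoa and Fdps had low counts for such genes and have near-identical copies, so their values are uncertain and not given, although the counts for their lists include them.

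Complement and acute phase genes were higher in smooth muscle for 11 of 12 tested genes, with 1 lower. Apod, apolipoprotein D, a lipid-binding lipocalin (chr16:31296192-31314808), stood at 159, 166, 181 and 155 CPM in smooth muscle and 0.358, 0.239, 0.28 and 0.299 CPM in proliferating libraries (9.17 ± 0.11). C1s1, a complement protease, stood at 325, 337, 357 and 305 CPM in smooth muscle and 0.651, 0.86, 0.479 and 2.57 CPM in proliferating libraries, with proliferating replicate 4 the highest of its group. It changed by 8.30 ± 0.30, or 8.82 without that library. Interferon and antigen presentation genes were higher for 11 and lower for 4 of 22, or 12 and 7 without the replicate 4 libraries (7 lower also without proliferating replicate 4 alone). Mx1 (5.38, or 6.06 without proliferating replicate 4), Ifit3 (2.69) and B2m (0.94) rose and Oas1a (-2.76) and Ifitm3 (-1.98) fell, so the list had no single direction.

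Markers of the neural crest and of its other derivatives were checked. Of 31 neural crest transcription factors 15 were tested, with 8 higher (40.8% of all tested genes) and 5 lower (38.9%), or 8 and 6 without the replicate 4 libraries, and a median of 0.29. Sox10 and Foxd3, which define early neural crest, were at or near 0 in both groups, with means of 0.00835 and 0 CPM for Sox10. Sox9 (0.00) and Twist1 (-0.02), which mark mesenchymal crest, were not called, Tfap2a (2.02) and Msx1 (1.48) rose, and Ets1 (-1.76) and Twist2 (-1.47) fell. Chondrocyte markers were higher for 9 and lower for 0 of 12 tested of 19. Col10a1, the collagen of hypertrophic cartilage, stood at 341, 312, 312 and 169 CPM in smooth muscle and 0, 0.0637, 0.0799 and 0.214 CPM in proliferating libraries (11.76 ± 0.48), with smooth muscle replicate 4 the lowest of its group, while aggrecan, Acan, was at 0.14 and not called. Matn4 had 261 counts against 0, at least 111-fold higher against a floor of 3 counts over the group. Of 9 tested osteoblast markers of 17, 6 were higher and 2 lower, with the bone phosphatase Alpl at 6.89 (6.13 without proliferating replicate 2 and 9.98 without proliferating replicate 3), the master factor Runx2 at only 0.17, with overlapping libraries, and Sp7, Ibsp and Bglap too low to be tested. Alpl was low, at a mean of 3.92 against 0.0399 CPM. The 2 that fell were Phex (-4.33, 1.39 against 28.1 CPM) and Spp1 (-1.64). Pericyte markers were higher for 4 and lower for 1 of 5 tested of 12, and fibroblast markers higher for 8 and lower for 4 of 13 tested of 16. The pericyte genes that rose were Anpep (6.36), Notch3 (3.98), Mcam (2.22) and Pdgfrb (1.94), and Cspg4, the NG2 proteoglycan, fell (-0.58 ± 0.11). The defining pericyte genes Abcc9, Higd1b and Vtn were at 0 in all 8 libraries.

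Markers of other cell types were mostly low in both groups. Few members of these lists passed the filter on low counts, and the counts stand against 40.8% higher and 38.9% lower over all tested genes. Summed over the skeletal muscle list the range was 15.7 to 20.2 CPM in smooth muscle and 0.998 to 1.92 CPM in proliferating libraries, and Myod1, Myog, Pax7 and Ckm were at 0 in all 8. Of 4 tested genes of 14 on this list 3 were higher, among them the actin Acta1. The sums were 5.38 to 8.89 against 2.1 to 3.08 CPM for the cardiac list (3 higher and 1 lower of 4 tested of 12, Actc1 and Nkx2-5 at 0), and 37.9 to 48.3 against 7.1 to 14.8 CPM for the melanocyte list (4 higher of 4 tested of 8, Tyr, Tyrp1 and Dct at 0). They were 148 to 154 against 44.6 to 50 CPM for the adipocyte list (4 higher and 1 lower of 5 tested of 13, Lep, Cidec and Cfd at 0), where Lpl, lipoprotein lipase, changed by 7.52. They were 9.45 to 12.6 against 5.35 to 11.9 CPM for the neuron and glia list (2 higher of 4 tested of 16, Fabp7 at 0), with 1 lower, or 0 when proliferating replicate 1, 2 or 3 or smooth muscle replicate 2 or 4 was left out. The endothelial list was lower in sum, at 69.7 to 84.7 against 230 to 249 CPM (3 higher and 2 lower of 5 tested of 11, Tie1 and Cldn5 at 0). This sum was mostly Flt1 (-2.03, mean 56.5 against 230 CPM). The members that rose were Erg (997 counts against 1), Tek (4.53) and Pecam1 (1.24), at means of 8.97, 1.88 and 1.04 CPM in smooth muscle. Egfl7 fell (-0.53). The immune list (4.57 to 5.2 against 12.7 to 16.1 CPM, 2 lower of 3 tested of 11, Cd3e, Itgam and Tyrobp at 0) and the epithelial list (1.57 to 2.65 against 5.14 to 6.93 CPM, 1 higher and 1 lower of 3 tested of 11, Esrp1 and Cldn4 at 0) stayed low. The part of such cells in the changes above was not tested.

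The largest changes were taken among called genes with an established symbol, a mean of at least 10 counts in each group and no overlap between groups. Genes with fewer counts in 1 group, such as Lmod1 and Col10a1, can have larger fitted changes. Of the 10 largest rises so chosen 5 were matrix genes, and the 10 largest falls were of mixed kinds. Apod was the first of the rises. Besides Apod, Aspn, Col11a1, C1s1, Tnn, Prelp and Postn, the 10 largest rises held Mme (8.78 ± 0.14), the peptidase neprilysin, Kif26b (7.84 ± 0.11), an atypical kinesin, and Bmf (7.77 ± 0.21), a pro-apoptotic BH3 protein. Mme (chr3:63241537-63386030) stood at 130, 146, 141 and 174 CPM in smooth muscle and 0.358, 0.302, 0.28 and 0.428 CPM in proliferating libraries. The 10 largest falls were Areg (-6.59 ± 0.25), Slc7a11, Il18rap (-5.39 ± 0.23), a subunit of the interleukin 18 receptor, Upp1 (-5.32 ± 0.17), uridine phosphorylase, Car12 (-5.27 ± 0.28), a carbonic anhydrase, Fosl1, Tmem171 (-5.17 ± 0.18), Crhr1 (-5.14 ± 0.24), the corticotropin-releasing hormone receptor, Gabra2 (-5.12 ± 0.21), a GABA receptor subunit, and Akr1c18 (-5.04 ± 0.26), a steroid dehydrogenase. Areg, amphiregulin (chr5:91139599-91148432), stood at 0.918, 0.568, 0.544 and 1.24 CPM in smooth muscle and 69.5, 68.2, 70.3 and 107 CPM in proliferating libraries, and proliferating replicate 4 was the highest library. In share of all counts the largest losses were Hsp90ab1, a chaperone (-0.274 percentage points), Pkm (-0.21), the chromatin protein Hmga2 (-0.201), the retinoic acid-binding protein Crabp1 (-0.189) and Ncl (-0.175). Hmga2, a fetal architectural factor, stood at 132, 115, 125 and 125 CPM in smooth muscle and 2297, 2205, 2302 and 1983 CPM in proliferating libraries (-4.15 ± 0.07).

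A small number of tested genes were seen in 1 group only. No count was found in any proliferating library for 60 tested genes and in any smooth muscle library for 7. Egfl6, a secreted EGF-like protein (chrX:166523007-166585720), had 513, 555, 541 and 517 CPM in smooth muscle and 0, 0, 0 and 0 CPM in proliferating libraries, so at least 25197-fold more against a floor of 3 counts over the group. Fmo1, a flavin monooxygenase, was at least 1101-fold higher by the same measure, Reps2 at least 937-fold, Fbln7 at least 490-fold and Kbtbd11 at least 304-fold. In the other direction the bounds were smaller, at least 72.3-fold lower for Rnf183, 70.7-fold for Enthd1 and 41-fold for Cryba4. The 10 most abundant genes took 6.7% ± 0.259 of counts in smooth muscle and 5.21% ± 0.223 in proliferating libraries (SD, n = 4 each, two-sided exact permutation test, p = 0.0286).

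To see which of these changes set smooth muscle cultures apart from the other differentiated cultures, the same smooth muscle libraries were compared with osteoblast and chondrocyte cultures at 21% O2. These comparisons share the smooth muscle libraries with the one above, and culture times and media differ. Osteoblast replicate 4 stood far apart from its group, with a chi-square per degree of freedom of 91.108 to 97.051 for pairs with it against 2.891 to 3.877 for the other pairs. Of the chondrocyte libraries, only replicates 2 and 3 were close (8.579, against 27.826 to 36.542 for the other pairs). Against osteoblast cultures 7249 of 14573 genes were called (49.7%), 3558 higher (24.4%) and 3691 lower (25.3%). At 2-fold or more 1237 were higher (8.49%) and 1131 lower (7.76%), and 6986 genes (47.9%) did not overlap. Without osteoblast replicate 4, 8852 genes were called, 4416 higher and 4436 lower, and without both replicate 4 libraries 9229. Scaling by library size alone moved the split to 5832 higher and 2313 lower. Against chondrocyte cultures 9902 of 14619 were called (67.7%), 5071 higher (34.7%) and 4831 lower (33%). At 2-fold or more 2178 were higher (14.9%) and 1732 lower (11.8%), 9087 genes (62.2%) did not overlap, and library size scaling gave 8007 and 2750. It moved the median of all genes by 0.21 and 0.37, so directions of small changes below depend on scaling.

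Contractile genes did not set smooth muscle cultures above osteoblast cultures. Of 21 tested, 1 was higher (24.4% of all tested genes were), 7 were lower (25.3%) and 13 were not called, with a median of -0.15, and with library size scaling 4 were higher and 4 lower, with a median of 0.06. Without the replicate 4 libraries 8 were higher and 10 lower. Acta2 differed by 0.02 and Tagln by -0.05, neither called. In counts per 1000000 total counts, Acta2 ranged from 3848 to 4406 in smooth muscle and from 3070 to 4683 in osteoblast libraries, with overlap, and from 1646 to 2015 in chondrocyte libraries. Smtn (-1.11) and Lmod1 (-0.83) were lower in smooth muscle than in osteoblast cultures and Synpo2 (0.59) was higher. Against chondrocyte cultures, 16 contractile genes were higher (34.7% of all tested genes were) and 3 lower (33%), with a median of 0.86, or 18 and 0 with library size scaling. Mylk (3.46), Itga8 (3.51), Synpo2 (3.32) and Myh11 (3.06) differed most, and Acta2 by 0.82.

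Cell cycle genes were higher in smooth muscle than in osteoblast cultures, with 27 of 28 mitosis genes (0 lower, median 3.08) and 21 of 28 DNA replication genes (2 lower, median 0.97) called higher, against 24.4% of all tested genes higher and 25.3% lower. Without the replicate 4 libraries these were 27 and 25 genes higher. Against chondrocyte cultures 0 mitosis genes were higher (34.7% of all tested genes) and 15 of 28 lower (33%), with a median of -0.37. Without the replicate 4 libraries 0 were higher and 21 lower (median -0.47), and with library size scaling 1 was higher and 3 lower (median -0.01), so the count depended on the libraries and the scaling. Of 29 DNA replication genes, 2 were higher and 17 lower than in chondrocyte cultures (median -0.49). These counts were 2 and 22 without the replicate 4 libraries, and 5 and 7 with library size scaling. Fibrillar collagen and matricellular genes were lower in smooth muscle cultures than in both, with 16 fibrillar collagen genes lower and 1 higher against osteoblast cultures (median -0.66, or 19 and 1 without the replicate 4 libraries) and 19 lower and 2 higher against chondrocyte cultures (median -2.37). Matricellular genes were lower for 15 and higher for 1 of 18, and lower for 15 and higher for 2 of 17, respectively. The other matrix lists had calls in both directions. Elastic fibre genes were higher for 7 and lower for 8 of 19 against osteoblast cultures (median -0.07, or 8 and 11 without the replicate 4 libraries) and higher for 10 and lower for 8 of 19 against chondrocyte cultures (median 0.32). Basement membrane genes were higher for 8 and lower for 8 of 17, and higher for 7 and lower for 10 of 18, respectively (medians -0.29 and -0.32). Small leucine-rich proteoglycans were higher for 1 and lower for 6 of 11 against osteoblast cultures (median -0.92, or 4 and 7 without the replicate 4 libraries) and higher for 4 and lower for 6 of 11 against chondrocyte cultures (median -1.04). Chondrocyte markers were lower for 8 and higher for 1 of 13 against osteoblast cultures (median -1.51), or 8 and 3 without the replicate 4 libraries (median -0.87). They were lower for 14 and higher for 0 of 15 against chondrocyte cultures. Col10a1 was 5.93 higher than in osteoblast cultures, but at -0.68 against chondrocyte cultures it was not called. FGF and ERK genes were higher for 13 and lower for 6 of 30 against osteoblast cultures (median 0.61, or 16 and 9 with a median of 0.35 without the replicate 4 libraries) and for 15 and 9 against chondrocyte cultures (median 0.31). Interferon and antigen presentation genes were higher for 18 of 22 (median 1.38) and 21 of 21 (median 2.85), with none lower (0 in each). The endothelin receptor Ednrb was 8.34 higher than in osteoblast cultures.

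**Figure D5:**
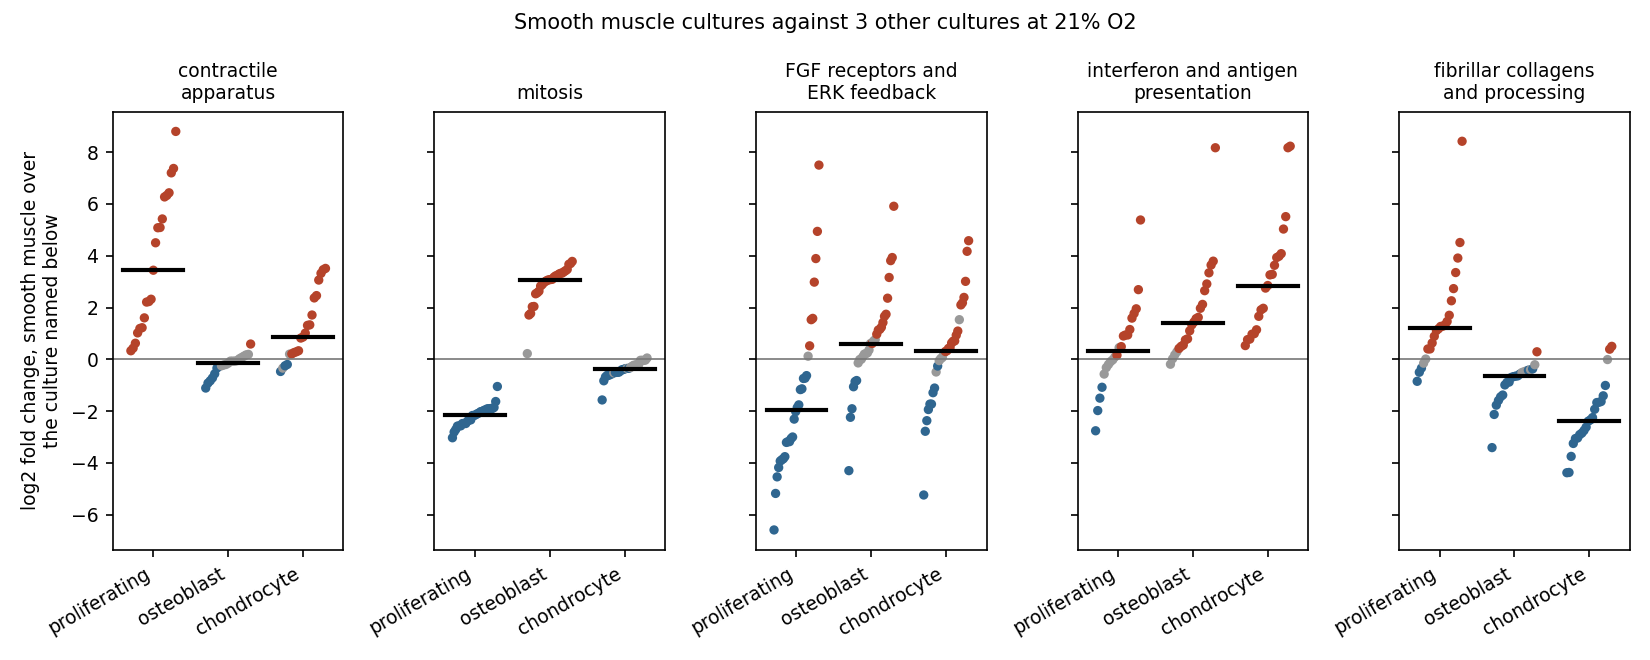
Log2 fold change (vertical axis) of each tested gene of 5 lists for smooth muscle over proliferating, osteoblast and chondrocyte cultures at 21% O2, with 1 point per gene and a bar at the median. Red points were called higher, blue lower and grey not called. The contractile list stands at 3.44, -0.15 and 0.86 and the mitosis list at -2.15, 3.08 and -0.37.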

How the data were processed

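Whole-number counts per gene were deposited for 28 libraries in 8 groups, and 16 libraries at 21% O2 were used. HISAT2 2.0.5, StringTie 1.3.3b, featureCounts 1.5.0-p3 and the mm10 build are named per the submitters' processing notes, and the roles and strand setting are not given in the sources used here. The authors' deposited comparison table gave a log2 fold change of the same sign for 11626 of 11626 called genes (median absolute difference 0.0053). The p-values in the deposited tables are named in the file headers without the test or adjustment, and they were not used. Of the deposited normalised values, 70 columns were not used. The reference table named 54314 (99.8%) of the gene identifiers.

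Each pair of groups (4 against 4 libraries) was fitted with edgeR 4.0.16 (R 4.3.3, robust quasi-likelihood, two-sided, TMM scaling, filterByExpr with 10 counts and a total of 15, Benjamini-Hochberg). Shares of counts were compared by exact permutation. Motifs were searched in RefSeq promoters (GRCm38.p6), and gene positions come from GENCODE on the same build.

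The 47 gene lists and the groups compared were chosen with earlier results of these data known. Genes were named for the largest rises and falls (10 each, mean of at least 10 counts in each group, no overlap), the largest changes in share of counts, the most counts against 0, and the largest changes in each list. Other genes were named for their roles, with values already seen, and the values of some genes that the rule names are not reported here. Alternatives were DESeq2 1.42.0, limma-voom (limma 3.58.1), other scalings and filters, thinning, a replicate block, all 16 libraries and leaving out libraries.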

Additional observations from a re-analysis of the deposited data

Results flagged for a closer look

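In each group of 4 libraries, the genes named by size of change or as markers and the 3 shares of counts were checked for 1 library far from the other 3 (Dixon's criterion at 95%). It was met in 8 of 86 groups of values, and chance alone gives about 1 in 20. Of the 8, 6 were in proliferating replicate 4. In that library Areg stood at 107 CPM (68.2 to 70.3 in the others), Slc7a11 at 70.5 CPM (32.5 to 35.3), Crhr1 at 28.4 CPM (18.5 to 19.7) and Col11a1 at 8.3 CPM (2.15 to 2.8). The contractile list took 0.458% of its counts (0.496% to 0.497% in the others), and the mitosis and DNA replication lists 0.858% (0.976% to 0.992%). In smooth muscle, Slc7a11 stood at 1.5 CPM in replicate 2 (0.612 to 0.725 in the others), and Fmo1 at 33.6 CPM in replicate 4 (19.5 to 20.1).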

How the results depend on the processing

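Between smooth muscle and proliferating cultures, the count of called genes stayed within 1.5 times of 11626 under every alternative run, from 10142 (10 counts in every library) to 12889 (no filter), and 0 calls changed sign in any of them. Leaving out 1 library gave 11361 to 11917. Replicate numbers did not pair the libraries, since same-numbered libraries correlated at -0.0488 to 0.0355 in their deviations, and the fit with a replicate block gave 11508 calls, 98.2% of the main calls among them. Against osteoblast cultures, library size scaling gave 5832 genes higher and 2313 lower, and against chondrocyte cultures 8007 and 2750. The share differences without 1 library ranged from 1.26 to 1.31 percentage points for the contractile list, -0.771 to -0.726 for mitosis and DNA replication and 1.37 to 1.6 for the 10 most abundant genes, each at p = 0.0571 by the exact permutation test, the smallest that 4 against 3 allows. Of 293 genes that the naming rules select, 283 kept their call and direction under every alternative they were tested in (the limit of 10 counts in every library left some untested), 0 reversed, and Adm, Cxcl14, Gstm1, Il33, Krt19, Notch1, Pdpn, Pecam1, Tnxb and Tubb3 lost the call in at least 1, for which the cause was not tested. Requiring 10 counts in every library tested fewer genes, and members called higher went from 9 to 2 for chondrocyte markers, 14 to 7 for Wnt genes and 10 to 6 for small leucine-rich proteoglycans. Depth limits genes such as Cnn1 and Myh11, near 0 in proliferating libraries. Replicates 1 to 3 alone were added after seeing the data.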

Other observations

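Immediate early genes, which serum and growth factors switch on within minutes, were called in both directions at near the shares of all tested genes, with 8 higher (40.8% of all) and 8 lower (38.9%) of 19 tested. Within the AP-1 family, Fos changed by 2.79 ± 0.22 (4.55 ± 0.537 against 0.648 ± 0.0707 CPM, SD, n = 4 each) and Jun by -3.14 ± 0.05 (51.6 ± 2.04 against 455 ± 12.1 CPM). Egr2 (3.62) and the orphan receptor gene Nr4a3 (5.93, or 6.92 without proliferating replicate 2) rose, Egr3 fell (-2.89), and Junb (-0.06) and Nr4a1 (-0.00) were not called.

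Hypoxia response genes, all at 21% O2 here, had no common direction, with 5 higher and 8 lower of 17 tested (40.8% and 38.9% of all tested genes) and a median of 0.02. Vegfa (-0.57) and the glucose transporter Slc2a1 (-1.23) fell, Ndrg1 rose (1.06), and Bnip3 (0.02) and Egln3 (0.10) were not called. Among cytokines and chemokines, 5 were higher and 5 lower of 11 tested, near the same shares of all tested genes. Cxcl12, a chemokine of stromal cells that guides CXCR4-bearing cells, stood at 652, 692, 712 and 578 CPM in smooth muscle and 55.7, 55.9, 54.1 and 20.5 CPM in proliferating libraries (3.81 ± 0.33), without overlap. Cxcl5 (4.56) rose and the monocyte chemokine Ccl2 (-2.87) fell.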
